A study of Mus musculus with 3 samples.

Results

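The Hox genes are the 39 genes of the deposited table, of 33353 in all, whose whole symbol names a Hox cluster (Hoxa, Hoxb, Hoxc or Hoxd) and a paralog number from 1 to 13. They were followed through 2060 enteric neurons of 3 Ednrb-/- mice at postnatal day 14, with 1 single-cell library per mouse. The mice were labelled Ednrb-KO, a model of Hirschsprung disease, with the strain given as C57BL/6. The study's methods name parent stocks of mixed strain background. Each mouse also carried Wnt1-tdT, a tdTomato reporter switched on by the neural crest driver Wnt1-Cre, and tdTomato-positive cells were sorted from the muscle and myenteric plexus of the small intestine from duodenum to terminal ileum. Mouse 1 gave 354 cells and mice 2 and 3 gave 1050 and 656. No other genotype was analysed here, so the comparisons are between classes of cells within these mice. The tissue was dissociated whole, so no cell carries a label of its position along the gut.

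Hox genes encode homeodomain transcription factors. In each cluster the genes lie in a row, and those at the 3' end, with low paralog numbers, are active further forward in the embryo than those at the 5' end. Neural crest cells of the hindbrain keep a Hox code when they leave for the gut, and the number of the most 5' gene that is active is known to rise from stomach to colon. In the enteric nervous system Hoxb5 is known to act upstream of Ret, the receptor that crest cells need to colonise the bowel.

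A homeobox, the stretch of each gene that encodes the DNA-binding homeodomain, is shown for 3 members. Hoxa5 was the most abundant member, and Hoxb8 and Hoxc8 share a paralog number but were spread differently over the cells. The sequences were read from GENCODE M21 protein-coding transcripts (mm10), at chr6:52202632-52202811 on the minus strand for Hoxa5, chr11:96284174-96284353 on the plus strand for Hoxb8 and chr15:102992571-102992750 on the plus strand for Hoxc8. Each lies within 1 coding exon, and capitals mark the 18 bases of the core of the recognition helix.
Hoxa5: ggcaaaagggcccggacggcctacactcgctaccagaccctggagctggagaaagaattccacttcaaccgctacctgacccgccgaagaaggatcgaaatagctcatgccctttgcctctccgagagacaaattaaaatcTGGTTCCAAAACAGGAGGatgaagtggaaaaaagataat
Hoxb8: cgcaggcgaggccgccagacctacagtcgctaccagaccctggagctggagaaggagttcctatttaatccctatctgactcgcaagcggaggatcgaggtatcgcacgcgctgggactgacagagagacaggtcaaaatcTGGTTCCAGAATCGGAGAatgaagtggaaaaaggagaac
Hoxc8: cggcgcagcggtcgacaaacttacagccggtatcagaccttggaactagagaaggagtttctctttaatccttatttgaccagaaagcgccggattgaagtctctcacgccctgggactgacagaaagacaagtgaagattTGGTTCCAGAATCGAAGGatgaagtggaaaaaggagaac
Hoxb8 and Hoxc8 shared 144 of 180 bases (80.0%) and Hoxa5 and Hoxc8 shared 118 (65.6%). Over the 39 members the median identity was 80.6% for the 42 pairs with the same paralog number and 60.6% for the other 699 pairs.

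The plot of levels by paralog number shows how the code of these neurons was built. Levels are unique molecular identifiers (UMIs, 1 per captured transcript) of a gene per 10000 UMIs of the same cells, and they are not divided by gene length because the reads come from transcript ends. All Hox genes together made up 17.3, 17.7 and 17.8 UMIs per 10000 in mice 1, 2 and 3 (17.6 ± 0.304, SD, n = 3). Paralog number 5 held 64.1% ± 1.25 of these UMIs, and the paralogs on either side of it fell away. The level of paralog number 4 was 2.52 ± 0.0592, of number 5 was 11.3 ± 0.103 and of number 6 was 0.740 ± 0.176. Paralogs 6 to 8 together held 7.33%, 7.52% and 7.45% of the Hox UMIs of mice 1, 2 and 3, close to each other over all cells. Without Acta2-high cells the shares were 4.04%, 7.40% and 7.47%, so mouse 1 was then lower.

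**Figure D1:**
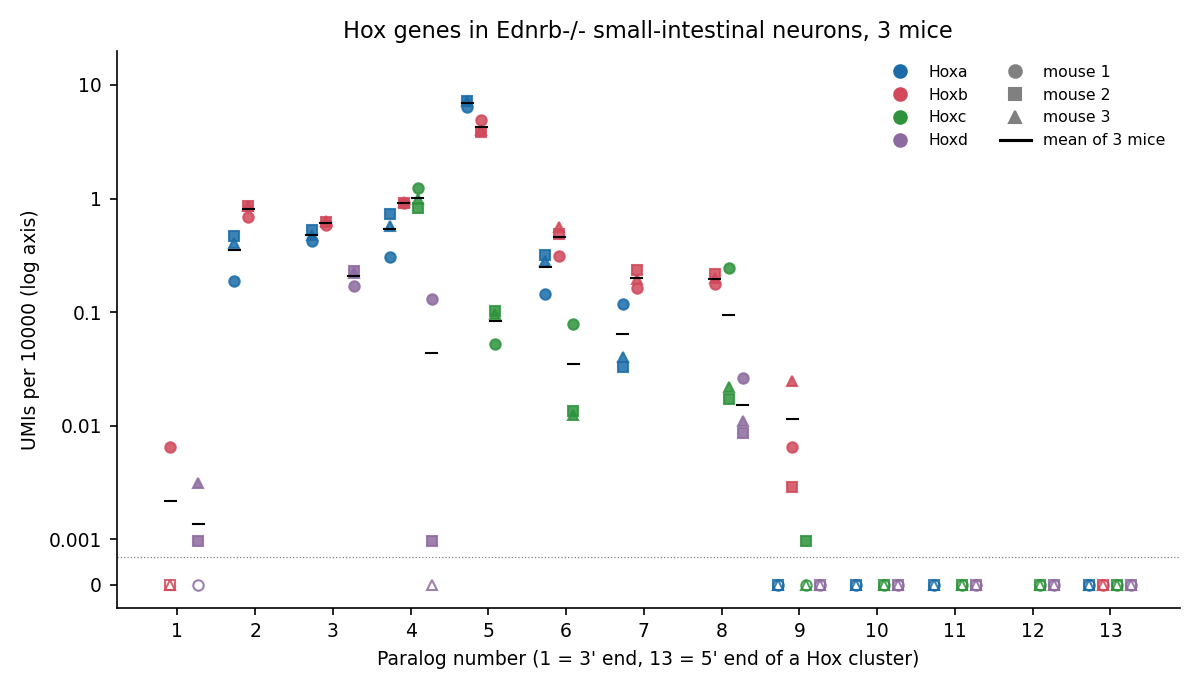
Level of 38 of the 39 Hox genes (UMIs per 10000, log axis) against its paralog number, coloured by Hox cluster, with a symbol for each mouse and a bar at the mean where it lies above the dotted line; open symbols under the dotted line are at 0 UMIs. Hoxa5 and Hoxb5 stand above all other members in each of the 3 mice, and nothing was counted at numbers 10 to 13.

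Of the 39 members, 25 had at least 1 UMI and 20 were detected in at least 1% of all cells. Hoxa5 led in every mouse, with 6.34, 7.18 and 7.25 UMIs per 10000 in mice 1, 2 and 3. Hoxb5 followed with 4.91, 3.88 and 4.02. Hoxa5 lay above Hoxb5 in each mouse, and together they made up 63.0% of all Hox UMIs. After every cell was thinned to 3000 UMIs, because the median depth was 3735 UMIs in mouse 1 and 9600 and 9579 in mice 2 and 3, Hoxa5 was detected in 71.4% ± 1.98 of cells and Hoxb5 in 61.6% ± 4.38. Without thinning the shares were 84.0% ± 9.42 and 76.8% ± 5.64.

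The third member with paralog number 5, Hoxc5, was far lower, at 0.0524, 0.102 and 0.0967 UMIs per 10000. Of the 4 genes with paralog number 4, Hoxc4 (1.23, 0.821 and 0.984) and Hoxb4 (0.911, 0.917 and 0.942) were close, and their mouse values overlapped. Hoxa4 was lower, with 0.308 in mouse 1 and 0.729 and 0.571 in mice 2 and 3. Anterior members were present as well. Hoxb2, a hindbrain gene of rhombomeres, had 0.695, 0.867 and 0.858, and Hoxb3 had 0.583, 0.625 and 0.635. Hoxa3 had 0.426, 0.530 and 0.482, and Hoxd3 had 0.170, 0.231 and 0.223. Hoxa2, which patterns the crest of the second pharyngeal arch in the embryo, had 0.190, 0.466 and 0.402, and mouse 1 lay below the other 2 mice.

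Among the more 5' genes the Hoxb cluster led. Hoxb6 had 0.314, 0.492 and 0.565 UMIs per 10000, Hoxb7 had 0.164, 0.234 and 0.196, and Hoxb8 had 0.177, 0.215 and 0.200. Hoxa6 had 0.144, 0.317 and 0.282. Hoxa7 (0.118, 0.0328 and 0.0405), Hoxc6 (0.0786, 0.0135 and 0.0125) and Hoxc8 (0.242, 0.0174 and 0.0218) were each highest in mouse 1. Mouse 1 also held 58 of the 64 cells of cell cluster 10, whose smooth muscle genes are described with the Acta2-high cells. The 5 members at lower shares had UMIs in under 1% of cells: Hoxb1 (1 UMI), Hoxc9 (1 UMI), Hoxd1 (3 UMIs), Hoxb9 (20 UMIs) and Hoxd8 (20 UMIs).

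The remaining 14 members had 0 UMIs in every mouse: Hoxa9, Hoxa10, Hoxa11, Hoxa13, Hoxb13, Hoxc10, Hoxc11, Hoxc12, Hoxc13, Hoxd9, Hoxd10, Hoxd11, Hoxd12 and Hoxd13. A count of 0 among 18296869 UMIs allows a level of up to 0.00164 UMIs per 10000, and 0 of 2060 cells allows a share of up to 0.146% of cells with a UMI. These limits, and the intervals given with shares, cover counting error only. Of the 16 members with paralog numbers 9 to 13 only Hoxb9 and Hoxc9 were seen, with 21 UMIs between them, against 32409 for all members.

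By Hox cluster, Hoxa held 49.0% ± 4.56 of the Hox UMIs, Hoxb 42.5% ± 2.20, Hoxc 6.98% ± 2.05 and Hoxd 1.53% ± 0.319. The order of Hoxa and Hoxb was not the same in every mouse: Hoxb was ahead in mouse 1 (45.03% against 43.8%) and Hoxa in mice 2 and 3 (52.4% against 40.9% and 50.7% against 41.7%).

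Hoxb9 was the most 5' gene seen in more than 1 cell. It was found in 1 of 354 cells of mouse 1 (0.282%, exact Clopper-Pearson 95% interval 0.00715 to 1.56%), 2 of 1050 of mouse 2 (0.190%, 0.0231 to 0.686%) and 11 of 656 of mouse 3 (1.68%, 0.840 to 2.98%). The intervals of mice 2 and 3 did not overlap. The 11 cells of mouse 3 were spread over 7 of the 13 cell clusters, with 4 in cluster 4. In mouse 3, Hoxb7 was detected in 7 of the 11 Hoxb9 cells (63.6%) and in 12.4% of the other 645, and Hoxb8 in 6 of 11 (54.5%) and 13.6%. Median depth was 11518 UMIs in the Hoxb9 cells and 9528 in the others. Hoxa5 was found in 90.9% and 88.2% of the same cells, and Hoxc8 in 0 of 11 and 2.02%.

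The highest paralog number found in a cell was counted in the thinned cells. It was 5 in 61.6% ± 0.976 of cells, 6 in 13.8% ± 1.61, 7 in 5.46% ± 1.08 and 8 in 7.76% ± 1.46. No Hox gene was found in 3.87% ± 0.233. A thinned cell held a median of 3 Hox genes in every mouse. At this depth a cell with a low level of a 5' gene can be counted at a lower number, so the shares describe detection and are not a measure of where a cell lay in the gut.

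**Figure D2:**
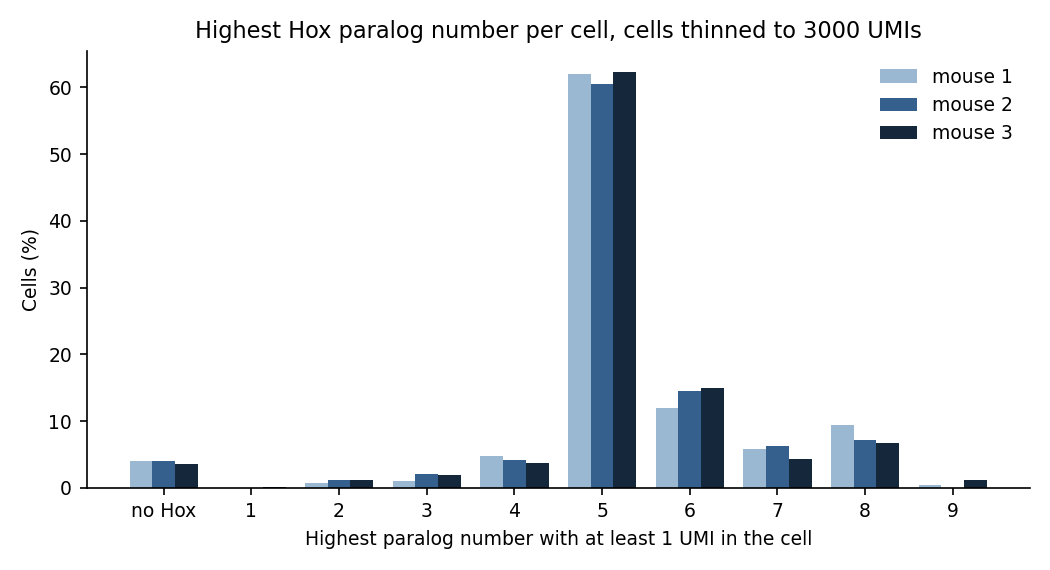
Share of thinned cells (%) of each mouse by the highest paralog number with at least 1 UMI in the cell. Number 5 is the tallest group of bars in every mouse, at 61.6% on average, and the bars of the 3 mice are alike.

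Members of 1 Hox cluster can be transcribed together, so detection in the same cell was counted for 91 pairs of 14 genes, within each mouse and cell cluster and after thinning. The observed number of double-positive cells divided by the number given by the separate shares had a median of 1.05 for the 31 pairs from 1 Hox cluster and 1.04 for the others. The highest ratio was 2.02, for Hoxb6 and Hoxb8 (28 cells against 13.9), and Hoxb7 and Hoxb8 had 1.48 (12 against 8.12). In mouse 1 no cell held both Hoxb6 and Hoxb8, and 0.768 were expected. The lowest was 0.62, for Hoxb8 and Hoxc4 (15 against 24.1). Counts per pair are small, and these ratios are a description without a test.

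Clustering of the deposited values gave 13 cell clusters of 21 to 378 cells. The clusters were divided by mouse. All 230 cells of cluster 3 came from mouse 1, and cluster 1 held 1 cell of that mouse. Clusters 0, 2, 4, 5, 6, 7, 8 and 12 held no cell of mouse 1, so their values rest on mice 2 and 3. Because 11 Hox genes were among the 2000 genes used to cluster, the cluster values are a description with no test. Leaving the Hox genes out again gave 13 clusters, a number that does not show whether they held the same cells. Hoxc8 and Hoxa6, both used to cluster, were themselves among the leading genes of clusters 10 and 8. Cluster 8 (94 cells, led by Krtdap, Ffar2 and Calb2) had the highest Hox level, 36.2 UMIs per 10000, and clusters 12, 10 and 2 the lowest, 9.32, 10.1 and 10.2.

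The heat map by cell cluster shows that the leading genes did not move as a block. Hoxa5 was 19.7 and 19.96 UMIs per 10000 in cluster 8 of mice 2 and 3, and 2.15 and 2.02 in cluster 2 of the same mice. In cluster 8 its detection reached 90 of 90 thinned cells (100%, 96.0 to 100%), and in cluster 2 it was 38.7% (32.4 to 45.2%). Hoxa6 (1.41 and 1.09) and Hoxa4 (2.06 and 1.32) were also highest in cluster 8. Hoxb5 was instead highest in cluster 9 (7.81 over all mice, led by Edn1, Gpr149 and Nog), cluster 11 (6.80) and cluster 0 (6.43 and 6.47 in mice 2 and 3), and in cluster 0 it was close to Hoxa5 (6.30 and 6.44). Hoxc4 also peaked in cluster 9 (2.80), of which 47 of 66 cells came from mouse 1.

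Hoxb8 had another pattern. It was 0.644 and 0.378 UMIs per 10000 in cluster 2 of mice 2 and 3, with Bcl11b and Tox3 among its leading genes, where Hoxa5 was low. In cluster 6 it was 0.470 and 0.261, with Hoxa5 at 8.82 and 12.0. In cluster 10, mostly of mouse 1, Hoxb8 was 0.490 over all mice, with Hoxa5 at 2.06 and Hoxc8 at 1.19. In cluster 0 Hoxb8 was 0.0727 and 0.160 in mice 2 and 3. Paralogs 6 to 8 made up 12.6% of the Hox UMIs of cluster 2, 34.7% in cluster 10 and between 4.72% and 8.94% in the other 11 clusters. Their level in cluster 2, 1.29 UMIs per 10000, was below that of clusters 4, 6, 8, 9 and 10. The neuron markers summed to 24.6 UMIs per 10000 in cluster 2 and 21.2 in cluster 10, against 51.5 to 166 in the others.

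**Figure D3:**
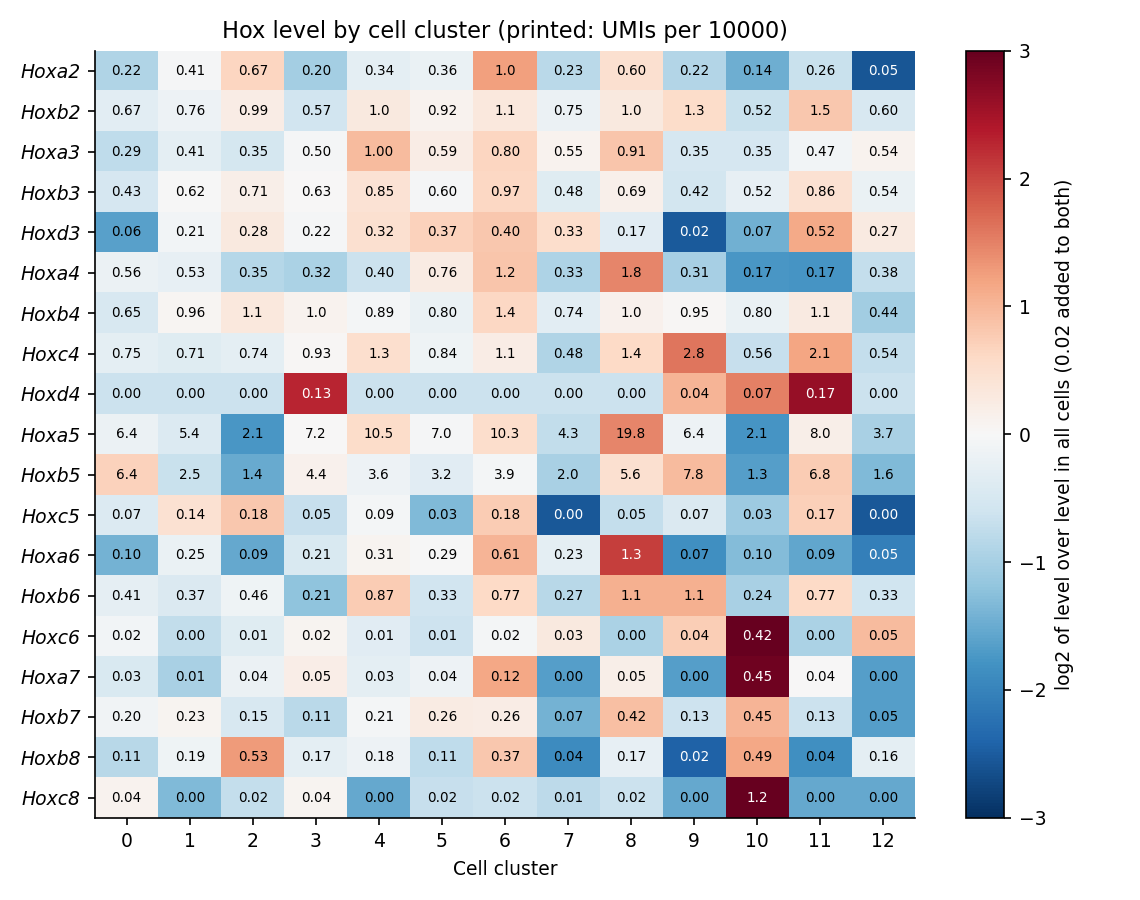
Level of 19 of the 20 Hox genes found in at least 1% of cells (rows, by paralog number) in the 13 cell clusters (columns); numbers are UMIs per 10000 over all mice and colour is the log2 of the level over that in all cells. Hoxa5 is highest in cluster 8 (19.8), Hoxc4 in cluster 9 (2.80) and Hoxc8 in cluster 10 (1.19); Hoxd4 was counted almost only in mouse 1.

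The first comparison asked whether the Hox code differed between the main transmitter classes of enteric neurons. Cells with Chat, the enzyme that makes acetylcholine, and no Nos1 (Chat-only, 16, 148 and 113 cells in mice 1, 2 and 3) were set against cells with Nos1, the neuronal nitric oxide synthase, and no Chat (Nos1-only, 130, 531 and 301 cells). The 103 cells with both genes and the 718 with neither were outside the comparison. Chat was at 0.144, 0.271 and 0.449 UMIs per 10000 over all cells of mice 1, 2 and 3. A Nos1-only cell can therefore hold Chat that was not captured. UMIs were summed per mouse and class and fitted with limma, with the mouse as a block. Mouse 1 had fewer than 20 Chat-only cells and was left out of the fit, which therefore rests on 2 mice.

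Hox transcripts were more abundant in Chat-only cells. All members together made up 26.5 and 24.8 UMIs per 10000 in Chat-only cells of mice 2 and 3, and 15.1 and 15.4 in Nos1-only cells. Hoxa5 was 12.499 and 11.9 in Chat-only cells and 5.73 and 5.55 in Nos1-only cells, a log2 difference of 1.10 (SE 0.10, adjusted p = 9.29e-06) on the log2(CPM + 10) scale, where the pseudocount of 10 CPM is 0.1 UMIs per 10000. In mouse 1, outside the fit, the values were 9.83 and 6.98. Of the 13 members tested, 10 were called higher at an adjusted p under 0.05 and 0 lower, against 14.9% higher and 12.1% lower among all 7118 genes tested. Hoxa6 and Hoxb7, among the 10, passed the filter on low values only through Chat-only cells, so their calls are no test. At an unadjusted p under 0.05, 11 of the 13 differed, as did 39.5% of all genes. Their median log2 difference was 0.60, and that of all genes was 0.08.

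The 10 had paralog numbers from 2 to 7, and of those with numbers 6 and 7 only the Hoxb6 call is a test. Hoxa6 was 0.798 and 0.450 UMIs per 10000 in Chat-only cells of mice 2 and 3 and 0.212 and 0.178 in Nos1-only cells (log2 difference 1.26, SE 0.15). Hoxb6 was 0.765 and 0.963 against 0.382 and 0.438 (0.91, SE 0.12), and Hoxc4 was 1.31 and 1.30 against 0.643 and 0.866 (0.73, SE 0.12). The other 6 were Hoxa2 (0.64), Hoxa4 (0.62), Hoxa3 (0.60), Hoxb7 (0.52), Hoxb2 (0.44) and Hoxb3 (0.38), with adjusted p-values between 0.00317 and 0.0311. In these genes Chat-only cells were above Nos1-only cells in both mice. In Nos1-only cells Hoxa6 and Hoxb7 (0.203 and 0.188) averaged under the filter limit of 20 CPM. Both passed it only through Chat-only cells, so their calls are no test of the difference and their levels are given as a description. In mouse 1, outside the fit, 5 of the 10 had the opposite order: Hoxa2 (0 against 0.165), Hoxb6 (0 against 0.247), Hoxa3 (0.454 against 0.462), Hoxb3 (0.605 against 0.610) and Hoxb7 (0.151 against 0.165). The Chat-only values of these 5 rest on 0 to 4 UMIs, as 1 UMI was 0.151 UMIs per 10000 in those 16 cells. All Hox members together were 24.5 in Chat-only and 17.1 in Nos1-only cells of mouse 1.

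Hoxb5, the second most abundant member, did not pass the test. It was 4.76 and 4.35 UMIs per 10000 in Chat-only cells and 3.97 and 4.03 in Nos1-only cells (log2 difference 0.18, SE 0.10, adjusted p = 0.208). Hoxb4 (0.26, adjusted p = 0.142) and Hoxd3 (0.38, adjusted p = 0.0805) did not pass either. In mice 2 and 3 all 13 members were higher in Chat-only cells without overlap between the classes, as were 37.5% of all genes tested, with 21.4% lower without overlap.

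**Figure D4:**
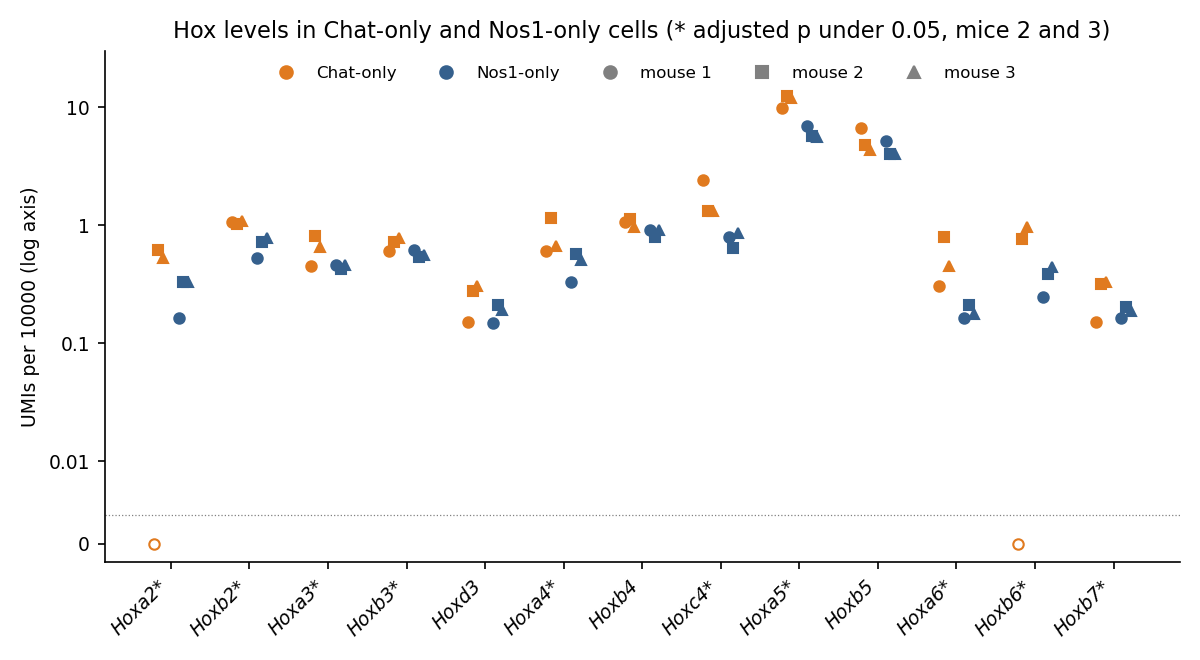
Level (UMIs per 10000, log axis) of the 13 Hox genes tested in Chat-only cells (orange) and Nos1-only cells (blue) of each mouse, ordered by paralog number; an asterisk marks an adjusted p under 0.05 in mice 2 and 3 and an open symbol 0 UMIs. The orange symbols of mice 2 and 3 lie above the blue ones for all 13 genes, while mouse 1, with 16 Chat-only cells, has no Hoxa2 or Hoxb6 UMI in that class. The asterisks of Hoxa6 and Hoxb7, which passed the filter only through Chat-only cells, mark no test.

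This comparison depended on mouse 1. With a limit of 10 cells, an alternative chosen after seeing the data that brought in its 16 Chat-only cells, 0 Hox genes were called by limma (5 at an unadjusted p under 0.05), and 8 genes were higher and 8 lower among all 7202 tested. The Hoxa2 difference was then -0.0398, and with mouse 1 and only 1 of the other mice Hoxa2 was -0.43 and -0.33 and Hoxb6 -0.41 and -0.48. Without the mouse block 5 were called, and with cells thinned to 3000 UMIs also 5.

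Chat-only and Nos1-only cells lay largely in different cell clusters: in mice 2 and 3, 31.4% of Chat-only cells were in cluster 4, 19.2% in cluster 6 and 18.01% in cluster 8, and 32.1% of Nos1-only cells were in cluster 0. Clusters 1 and 6 held at least 10 cells of both classes in each of mice 2 and 3. In cluster 1 Hoxa5 was 7.79 and 8.38 UMIs per 10000 in Chat-only cells and 4.43 and 3.82 in Nos1-only cells. In cluster 6 it was 11.1 and 14.01 against 6.95 and 10.6. Some other called members did not keep their order. In cluster 6 Hoxb6 was lower in Chat-only cells of both mice (0.621 and 0.887 against 0.864 and 1.05), and Hoxa2, Hoxa3, Hoxa4, Hoxa6 and Hoxb2 were lower in mouse 3. In cluster 1 of mouse 3, Hoxa3, Hoxa4 and Hoxa6 were lower. Hoxb4, which was not called, had the opposite order in both clusters, with 0.904 and 0.665 in Chat-only and 0.936 and 1.30 in Nos1-only cells of cluster 1, and 1.43 and 1.5003 against 1.61 and 1.91 in cluster 6. These within-cluster levels were not tested. In mice 2 and 3 the glial markers summed to 7.997 and 5.22 UMIs per 10000 in Chat-only cells and 13.2 and 10.5 in Nos1-only cells. The 9 smooth muscle markers summed to 8.02 and 8.41 against 18.9 and 12.6, and the interstitial and fibroblast markers to 2.11 and 2.12 against 3.85 and 2.58. Their part in the Hox values was not tested.

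The second comparison was between Sox10-positive cells (148, 572 and 368 cells in mice 1, 2 and 3) and Sox10-negative cells (206, 478 and 288). Sox10 is a transcription factor of crest progenitors and enteric glia, and 52.8% of these deposited neurons had a UMI of it. The summed level of the other 9 glial markers was 14.9 to 21.5 UMIs per 10000 in Sox10-positive cells and 3.96 to 7.61 in the rest, with none of them at 0. Its part in the Hox values was not tested.

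Hoxa5 was 5.41, 6.10 and 6.26 UMIs per 10000 in Sox10-positive cells of mice 1, 2 and 3 and 7.03, 8.70 and 8.73 in Sox10-negative cells. The classes did not overlap, and the log2 difference was -0.45 (SE 0.09, adjusted p = 0.0210). Hoxb6 was 0.244, 0.420 and 0.476 against 0.368, 0.594 and 0.697, lower in each mouse although the classes overlapped across mice (-0.44, SE 0.11, adjusted p = 0.0402). Of the 13 members tested 2 were called lower and 0 higher, against 4.58% lower and 5.08% higher among all 7222 genes. At an unadjusted p under 0.05, 7 of the 13 differed, as did 25.9% of all genes. The median was -0.32 for the members and -0.03 for all genes. Only Hoxa5 and Hoxb2 did not overlap between the classes, and both were below, as were 10.2% of all genes, while 6.78% of all genes and 0 of the 13 were above.

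The calls moved with the mice used. Without mouse 1, 7 members were called lower, as were 1128 of all 7056 genes, without mouse 2 limma called 0 (1 at an unadjusted p under 0.05) and without mouse 3 only Hoxa5 was. Leaving out clusters 0, 1, 2, 3 and 10, which hold most Sox10-positive cells, also left 0 calls by limma (0 at an unadjusted p under 0.05). Of all 7201 genes 0 were called in either direction, and the Hoxb6 difference was then 0.0268. Clusters 3 and 10 alone held 230 and 58 of the 354 cells of mouse 1. Cluster 3 also held 118 of the 148 Sox10-positive cells of mouse 1, and classes of at least 10 cells were accepted in this fit. The 0 calls therefore do not show that the difference was absent. Leaving out these clusters was chosen after seeing the data.

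The third comparison set Acta2-high cells (a deposited Acta2 value of at least 3.0, which is 19.1 UMIs per 10000; 79, 35 and 22 cells in mice 1, 2 and 3) against all other cells (275, 1015 and 634). Acta2 encodes smooth muscle actin. The other 9 smooth muscle markers summed to 121 to 271 UMIs per 10000 in Acta2-high cells and 5.90 to 8.94 in the rest, and none was at 0. The 9 interstitial and fibroblast markers also moved with the class, with sums of 12.2 to 37.1 and 2.44 to 7.92, and their part in the Hox values was not tested. The 12 neuron markers summed to 46.2 to 75.7 and 78.3 to 107. Acta2 formed a range: 48 cells lay within 0.5 below the limit and 41 within 0.5 above it.

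Hoxc8 was found mostly in Acta2-high cells. It was 0.969, 0.307 and 0.314 UMIs per 10000 in Acta2-high cells of mice 1, 2 and 3 and 0.00866, 0.00602 and 0.0144 in other cells. It was found in 21 of 79, 7 of 35 and 4 of 22 Acta2-high cells, and in 1 of 275, 6 of 1015 and 9 of 634 others. Acta2-high cells are 136 of 2060 cells and held 53 of the 69 Hoxc8 UMIs. Hoxc8 passed the filter on low values only through the class in which it is high, so its call is no test of the difference and its levels are given as a description; with no filter its adjusted p was 0.168. It was the 1 member called of 12 tested, with 0 lower, against 4.12% higher and 4.25% lower among all 7083 genes. At an unadjusted p under 0.05, 6 of the 12 differed, as did 26% of all genes.

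Cluster 10 held 62 of the 136 Acta2-high cells, nearly all from mouse 1, and its summed level of the smooth muscle markers was 364 in that mouse. In Acta2-high cells outside cluster 10 Hoxc8 was 0.234, 0.329 and 0.264 UMIs per 10000, from 3, 12 and 4 UMIs, so it remained above the other cells of each mouse. Without cluster 10, or without mouse 1, Hoxc8 no longer passed the filter and was not tested.

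Hoxc6 had a similar distribution to Hoxc8 at a lower level, with 0.269, 0.102 and 0.125 UMIs per 10000 in Acta2-high cells and 0.0173, 0.01003 and 0.00960 in the others, and it was too low for the test. Hoxa7 was 0.458 and 0.128 in Acta2-high cells of mice 1 and 2 but 0 in mouse 3. Hoxa5 was 3.07, 5.06 and 5.64 in Acta2-high cells and 7.39, 7.26 and 7.29 in the others (log2 difference -0.71, SE 0.22, adjusted p = 0.0596). Hoxa2 was 0.108, 0.179 and 0.125 against 0.217, 0.478 and 0.409 (-0.94, adjusted p = 0.0509). Neither passed the test. Hoxa2 was called lower with a pseudocount of 30 CPM, with the library size of listed genes, without mouse 1 and without cluster 10 (-0.59 to -1.11), and Hoxa5 without mouse 3 (-0.88). Hoxa2 lay under 20 CPM in Acta2-high cells of every mouse and passed the filter only through the other cells. Its calls are therefore no test of the difference. Hoxa2, Hoxa5, Hoxa3, Hoxb2 and Hoxb4 were the 5 members below the other cells without overlap, as were 19.2% of all genes, and Hoxc8 was the only one above, as were 6.3%. Paralogs 6 to 8 made up 24.2%, 11.4% and 6.49% of the Hox UMIs of Acta2-high cells in mice 1, 2 and 3, and 4.04%, 7.40% and 7.47% in other cells, so in mouse 3 the order was reversed.

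**Figure D5:**
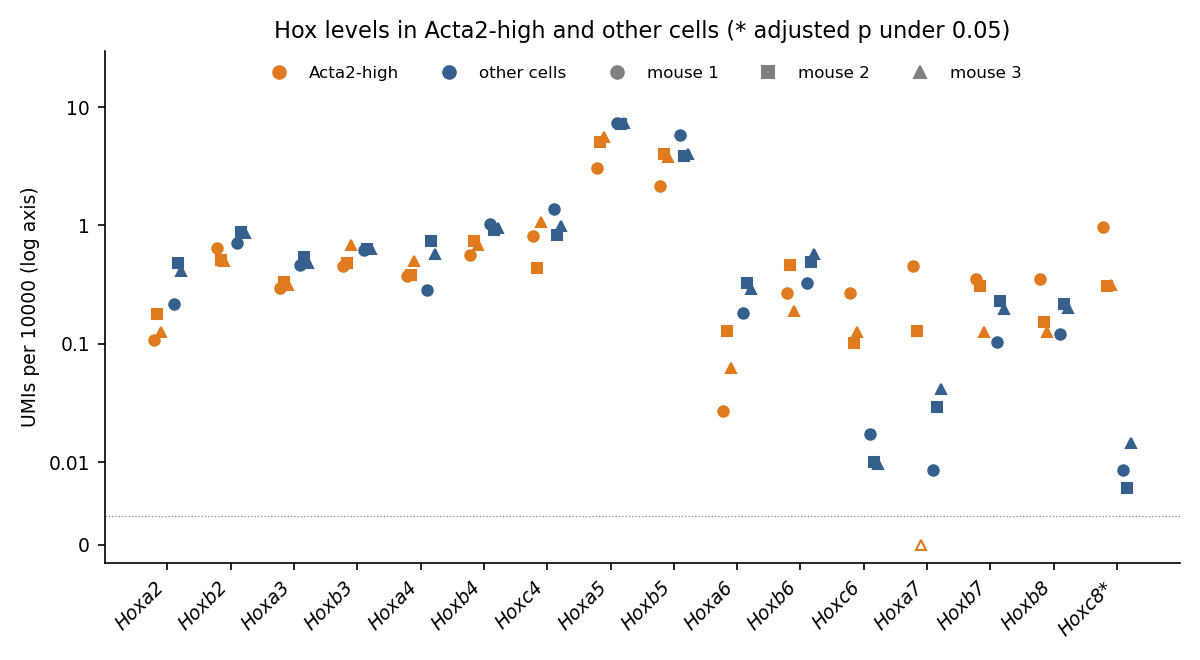
Level (UMIs per 10000, log axis) in Acta2-high cells (orange) and other cells (blue) of each mouse for the 12 Hox genes tested and for Hoxa6, Hoxa7, Hoxb8 and Hoxc6; an asterisk marks an adjusted p under 0.05 (for Hoxc8, which passed the filter only through Acta2-high cells, no test) and an open symbol 0 UMIs. Hoxc8 and Hoxc6 lie higher in Acta2-high cells of all 3 mice; Hoxa2 and Hoxa5 lie below without passing the test.

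Hox proteins bind DNA with TALE homeodomain cofactors of the Meis, Pbx and Pknox families. Of 5 of these 9 genes tested in Chat-only against Nos1-only cells, 2 were called higher, among them Meis1 (log2 difference 1.45), and 0 lower, against 14.9% and 12.1% of all genes in that fit. In Acta2-high cells Meis2 was the 1 of 7 called, at 2.45, 1.41 and 0.941 UMIs per 10000 against 0.0693, 0.0622 and 0.0736 in other cells. Like Hoxc8, Meis2 passed the filter only through Acta2-high cells, so its call is no test. Between the Sox10 classes 0 of 7 were called. Of the 24 Polycomb and Trithorax genes that maintain Hox chromatin states, 5 of 19 tested were higher in Chat-only cells (Mtf2, Phc3, Kmt2a, Kmt2b and Kdm6a, 0.32 to 0.59) and 0 lower, beside the same shares of all genes; with mouse 1 included 8 of all 7202 genes were higher. In Acta2-high cells 2 of 19 were lower, among them Ezh1 (-1.20), against 4.25% of all genes, and 0 of 18 were called between the Sox10 classes. The 2 lower genes averaged under 20 CPM in Acta2-high cells and passed the filter only through the other cells, so their calls are no test.

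The posterior Hox activators Cdx1, Cdx2 and Cdx4 had 0 UMIs in every mouse. Gdf11, of the same list of 7 upstream genes, was found in 5.39% of cells, and none of the list was abundant enough to be tested. Among noncoding genes of the Hox clusters, Hotairm1 had 1.19, 1.83 and 2.10 UMIs per 10000. Hoxaas3, which overlaps Hoxa3, Hoxa4, Hoxa5, Hoxa6 and Hoxa7 on the opposite strand, was called higher by limma in Chat-only cells (0.79, adjusted p = 0.00112). Hoxa3, Hoxa4, Hoxa5 and Hoxa6 were called higher as well, and Hoxa7 was too low for the test. The Hoxa6 call is no test, because that gene passed the filter only through Chat-only cells. Hottip and Hotair, of the 5' ends, were at 0.

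RefSeq promoter windows (GRCm38.p6, 250 bases before and 50 after the start) were found for 22 members, 24 windows in all. On either strand, the Hox-Pbx motif TGATTNAT was in 2 of the 24 and in 3.22% of 32851 windows of all genes, the Cdx motif TTTATG in 5 and 11.9%, and the retinoic acid receptor motif AGGTCA in 7 and 16.3%. A match describes the letters in a window only.

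Some members are less certain than others. Hoxd4 had 20 UMIs in mouse 1, 1 in mouse 2 and 0 in mouse 3. A separate row, Hoxd4.1, had 0, 0 and 3 UMIs and was not counted as a member. In GENCODE M21, 62.3% of the exon bases of Hoxd3 and 52.3% of those of Hoxd4 overlap another gene (each other and Gm28230) on the same strand, so their reads may be split differently. The gene lists of the mice also differed, with 294 symbols in at least 2% of cells of mouse 1 and in no cell of mice 2 and 3, and 264 the other way; whether these and the Hoxd4 values share a cause was not tested. No cell type known to lack Hox genes was among the cells, so the share of UMIs from free RNA was not measured here. The 10 markers of endothelium and epithelium had sums of 0.0521 to 0.0721 and 0.0879 to 0.498 UMIs per 10000 over all cells of a mouse. The highest, a sum of 5 epithelium markers in mouse 1, was above the level of the single gene Hoxa3 in that mouse (0.426). Epcam and Vil1, of these 5, were at 0 in mouse 1. The sum there was 0.770 in Sox10-negative and 0.137 in Sox10-positive cells, and it is not a measure of free RNA. In summed UMIs a smaller number of expressing cells and less RNA per cell cannot be told apart.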

How the data were processed

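Per the labels and the study's methods, tdTomato-positive cells were sorted, made into 10x Genomics libraries and aligned with Cell Ranger to mm10; its version is not given in the sources used here. The authors kept cells within limits on detected genes and mitochondrial reads, removed confounding genes and non-neuronal cells, and deposited 2060 neurons as the natural log of 1 plus UMIs per 10000. Whole UMIs were recovered from the natural log values (100% of 6435281 values whole within 1e-06; whole cell totals). Totals were 1526256, 10358118 and 6412495 UMIs in mice 1, 2 and 3, and 2 barcodes occurred in more than 1 library. Seurat 5.3.0 (R 4.3.3) clustered the cells (2000 variable genes, 20 components, resolution 0.5); doublets were not called again. Classes of at least 20 cells per mouse were summed and fitted with limma 3.58.1 on log2(CPM + 10), with a mean of at least 20 CPM, all UMIs of the cells as library size, the mouse as a block, and Benjamini-Hochberg adjustment over all genes tested. Classes of 1 fit come from the same animals, so the mouse pairs them. The fits were tested on simulated data. The members, lists and tests were chosen with earlier results of these data known. Hox genes in at least 1% of cells or called in a comparison are named with values, except 1 member, which like some other genes and 1 sequence is not reported here. Hoxb9, below that share, and the gene pairs and cell clusters described were singled out after their values were seen. Thinning to 3000 UMIs left out 78, 55 and 45 cells of mice 1, 2 and 3. The mice are separate animals of 1 group, and no comparison between groups was possible. With the mouse as a block, p-values measure the spread of the class difference between mice, with variances moderated over all genes tested. The fit of Chat-only against Nos1-only had 1 residual degree of freedom and 11.7 borrowed from all genes.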

Additional observations from a re-analysis of the deposited data

How the results depend on the processing

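The pairing by mouse carried weight: without the mouse block, limma called 5 Hox genes between Chat-only and Nos1-only cells (10 with it), 0 between the Sox10 classes (2 with it; 1 at an unadjusted p under 0.05) and 0 in Acta2-high cells (1 with it; 6 unadjusted). Calls over all genes fell as well, to 268 higher and 296 lower (1063 and 863 with it), 2 and 0 (367 and 331) and 85 and 14 (292 and 301). Between Chat-only and Nos1-only cells, thinning to 3000 UMIs left 5 calls (all genes 705 and 639). With classes of at least 10 cells, chosen after seeing the data, the 16 Chat-only cells of mouse 1 entered and 0 were called (5 unadjusted; all genes 8 and 8); leaving out each mouse in turn then gave 0 to 10. Hoxa2 turned to -0.0398 with mouse 1 included, -0.43 without mouse 2 and -0.33 without mouse 3, and Hoxb6 to -0.41 and -0.48 in the last 2. Between the Sox10 classes, leaving out 1 mouse gave 0 to 7 calls (all genes lower, 124 to 1128); 0 were called with no filter on low values (5 unadjusted; all genes 122 and 20), 1 with the library size of listed genes, with thinned cells or without Acta2-high cells, and 0 (0 unadjusted; all genes 0 and 0) without clusters 0, 1, 2, 3 and 10, where Hoxb6 turned to 0.0268. In Acta2-high cells, leaving out 1 mouse gave 1 to 3 calls; 2 were called with a pseudocount of 30 CPM or the library size of listed genes, and 0 with no filter (9 unadjusted; all genes 0 and 0) or an Acta2 value of at least 2 (2 unadjusted; all genes 76 and 4). The level of paralog number 5, 11.3 UMIs per 10000, was 10.7 as a mean over cells, 12.0 without Acta2-high and 12.8 without Sox10-positive cells, and 11.2 to 11.3 without 1 mouse. The share of cells with any Hox gene, 97.8%, was 83.4% when 2 UMIs of a gene were required and 97.1 to 99.1% without 1 mouse, and the share with paralogs 9 to 13, 0.748%, was 0.284 to 0.981% without 1 mouse. At resolution 0.3 the highest cluster had 29.1 UMIs per 10000. Chat-only against Nos1-only without mouse 2 or 3, and an Acta2 value of at least 4, left 1 mouse and could not be fitted. The Sox10 fit without clusters 0, 1, 2, 3 and 10 accepted classes of at least 10 cells. These counts include the calls of Hoxa6 and Hoxb7 in Chat-only cells and of Hoxc8 and Hoxa2 in Acta2-high cells, which are no test. The cause of the changes between settings was not tested.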
